A study of Rattus norvegicus with 9 samples.

Results

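Stim1, Orai1, Trpc1, Trpm4 and Trpv4 were followed as a set of 5 genes for store-operated and TRP cation channels, taken by gene symbol from the 30452 features of each count file. All 5 symbols were present, each on a single line. Arteries of rat offspring aged 3 to 5 months were profiled by RNA sequencing after enrichment with oligo(dT) beads. The 9 libraries fell into 3 groups of 3. MAC was the mesenteric artery of control offspring, whose dams had ordinary water beside a standard diet in pregnancy. MAH was the mesenteric artery of offspring whose dams had the same diet and water with 20% sucrose. PAC was the pulmonary artery of control offspring, with replicates numbered 1, 2 and 4. The labels name neither the strain, the sex nor the animals behind a library. The p-values therefore cover only the spread among these libraries, part of which may be technical.

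In a store-operated channel, the sensor STIM1 in the membrane of the endoplasmic reticulum detects that the calcium store has been emptied and opens the ORAI1 pore in the plasma membrane. TRP channels are a wider family of cation channels. TRPC1 is linked to receptor-operated and store-operated entry, TRPM4 passes sodium and potassium after calcium has activated it, and TRPV4 passes calcium and responds to stretch, heat and lipid mediators. In arteries, TRPM4 is known for depolarising smooth muscle as pressure rises, and TRPV4 for calcium signals in the endothelium that relax the vessel.

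Levels are in CPM, the counts of a gene per 1e+06 counts of the library, on totals scaled by TMM, a normalization that removes the effect of a few dominant genes, over all 9 libraries. CPM was not divided by gene length, so the levels of different genes are not compared. Total counts per library ran from 10388231 to 15420546, and the members had between 64 and 1176 counts in a library. Some libraries stood apart in cell type markers. The summed CPM of 7 smooth muscle markers (Acta2, Myh11, Tagln, Cnn1, Lmod1, Smtn and Myocd) ran from 9647 to 38428 in MAC, from 15480 to 24232 in MAH and from 3104 to 21336 in PAC. PAC 4 was the lowest of the 9 libraries for 7 of 7 smooth muscle markers and the highest for all lymphocyte markers (8 of 8) and all those of lung epithelium that were found (6 of 6). All 8 markers of cardiac muscle peaked in PAC 2. Their summed CPM was 1083, 22026 and 1916 in PAC 1, 2 and 4, against 33.3 to 110.0 in the mesenteric libraries. The sum of 5 mesothelium markers was 92.7, 19.7 and 149.6 in PAC 1, 2 and 4, against 1.82 to 6.97 in the mesenteric libraries. Lung epithelium markers summed to 0.91, 61.5 and 693.9 CPM in PAC 1, 2 and 4, and to at most 1.89 in the mesenteric libraries. Endothelial markers were present in every library, with the summed CPM of 8 markers between 687.5 in PAC 4 and 3787 in MAH 3. Mitochondrial genes took from 12.8% (MAC 1) to 20.00% (MAH 3) of the counts in mesenteric libraries, and 13.9%, 20.1% and 27.1% in PAC 1, 2 and 4. In bulk samples, fewer cells of a type and less RNA per cell cannot be told apart.

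None of the 5 genes passed the test in either comparison, and for each gene the ranges of all 3 groups overlapped. The genes differed in how far they spread over libraries of the same group. Stim1 was nearly level over the 6 mesenteric libraries, while Orai1 and Trpv4 spread several-fold within each mesenteric group.

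**Figure D1:**
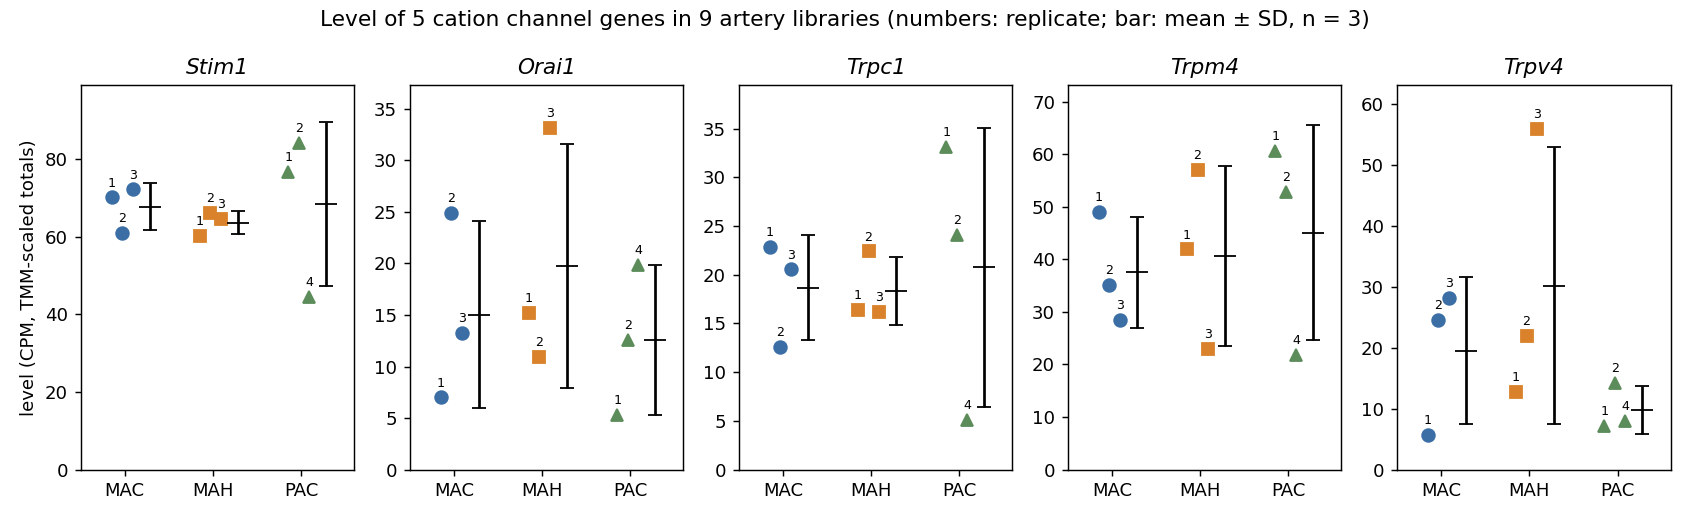
Level of each gene in CPM on TMM-scaled totals (y axis, from 0) in the 3 libraries of MAC (circles), MAH (squares) and PAC (triangles), numbered by replicate, with the mean and SD (n = 3) as a black bar. Stim1 lies between 60.2 and 72.2 CPM in all 6 mesenteric libraries, whereas Trpv4 spans 5.72 to 56.0 CPM there.

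Stim1, the calcium sensor of the store, was at 70.1, 61.0 and 72.2 CPM in MAC 1, 2 and 3, at 60.2, 66.2 and 64.6 CPM in MAH 1, 2 and 3, and at 76.6, 84.2 and 44.5 CPM in PAC 1, 2 and 4. The mesenteric libraries thus lay close together, and PAC 2 and PAC 4 were the highest and the lowest of the 9. The coefficient of variation within a group was 8.79% in MAC and 4.81% in MAH, where counting error alone gives 3.50% and 3.74%, and 30.8% in PAC. Over the 6 mesenteric libraries the range of Stim1 was 0.26 on the log2 (CPM + 0.5) scale, and 2.05% of the 13995 genes tested there had a smaller range (the median gene had 0.86). Genes with fewer counts have a larger range from counting error alone.

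Orai1, the pore that STIM1 opens, was at 7.00, 24.9 and 13.3 CPM in MAC 1, 2 and 3, at 15.2, 10.9 and 33.1 CPM in MAH 1, 2 and 3, and at 5.30, 12.6 and 19.8 CPM in PAC 1, 2 and 4. MAH 3 and MAC 2 were the highest and PAC 1 and MAC 1 the lowest. The coefficient of variation was 60.3% in MAC, 59.7% in MAH and 57.7% in PAC, against 8.19%, 7.45% and 9.05% from counting error. The range over the mesenteric libraries was 2.17 on the log2 (CPM + 0.5) scale, above that of 91.9% of the genes tested. Sensor and pore can also be set against each other within a library, which needs no scaling between libraries. MAC 1, 2 and 3 had 10.02, 2.45 and 5.44 Stim1 counts per Orai1 count, MAH 1, 2 and 3 had 3.96, 6.06 and 1.95, and PAC 1, 2 and 4 had 14.5, 6.68 and 2.25. The ratio overlapped between all groups, and its highest value was in PAC 1 and its lowest in MAH 3.

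Trpc1 was at 22.9, 12.6 and 20.6 CPM in MAC 1, 2 and 3, at 16.4, 22.4 and 16.2 CPM in MAH 1, 2 and 3, and at 33.1, 24.1 and 5.10 CPM in PAC 1, 2 and 4. PAC 1 was the highest and PAC 4 the lowest, with MAC 2 next to it. Its coefficient of variation was 29.0% in MAC, 19.1% in MAH and 68.9% in PAC. Its range over the mesenteric libraries, 0.84 on the log2 (CPM + 0.5) scale, was near that of the median gene.

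Trpm4, the calcium-activated channel for sodium and potassium, was at 49.0, 35.2 and 28.4 CPM in MAC 1, 2 and 3, at 41.9, 57.0 and 22.9 CPM in MAH 1, 2 and 3, and at 60.5, 52.9 and 21.9 CPM in PAC 1, 2 and 4. PAC 1 was the highest library and PAC 4 the lowest, with MAH 3 next to it. The mesenteric range was 1.30 on the log2 (CPM + 0.5) scale, above that of 73.0% of the genes tested.

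Trpv4 was at 5.72, 24.6 and 28.2 CPM in MAC 1, 2 and 3, at 12.7, 21.9 and 56.0 CPM in MAH 1, 2 and 3, and at 7.12, 14.3 and 7.94 CPM in PAC 1, 2 and 4. MAH 3 was far above the rest, and MAC 1 was below all 3 pulmonary libraries. Its coefficient of variation was 61.9% in MAC and 75.4% in MAH, against 7.87% and 6.35% from counting error. The range over the mesenteric libraries, 3.18 on the log2 (CPM + 0.5) scale, was above that of 97.7% of the genes tested.

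Orai1 and Trpv4 had the widest mesenteric spread and shared their highest library, MAH 3, and 2 of their lowest, MAC 1 and PAC 1, while Stim1 had the narrowest. The sequences around the annotated start sites of these 3 genes are shown for that reason, each from 250 bases before to 50 after the start. They come from RefSeq on build GRCr8, whose table held 4 of the 5 members by symbol (Stim1, Orai1, Trpm4 and Trpv4), and run 5′ to 3′ on the strand of the gene. Capitals mark GC boxes (GGGCGG on either strand).
Stim1, chr1:166067964-166068263, strand plus: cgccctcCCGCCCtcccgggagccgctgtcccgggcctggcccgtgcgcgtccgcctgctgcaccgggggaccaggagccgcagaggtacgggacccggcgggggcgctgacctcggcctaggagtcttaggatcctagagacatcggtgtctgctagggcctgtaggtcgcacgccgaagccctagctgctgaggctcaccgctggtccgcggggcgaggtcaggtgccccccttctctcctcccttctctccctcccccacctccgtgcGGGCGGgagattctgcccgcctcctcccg
Orai1, chr12:39208981-39209280, strand minus: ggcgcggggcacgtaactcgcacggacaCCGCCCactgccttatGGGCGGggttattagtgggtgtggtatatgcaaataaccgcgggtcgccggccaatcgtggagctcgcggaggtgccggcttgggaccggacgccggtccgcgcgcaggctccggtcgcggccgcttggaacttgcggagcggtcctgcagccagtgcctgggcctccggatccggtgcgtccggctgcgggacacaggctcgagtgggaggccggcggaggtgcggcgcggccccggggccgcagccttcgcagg
Trpv4, chr12:47598938-47599237, strand plus: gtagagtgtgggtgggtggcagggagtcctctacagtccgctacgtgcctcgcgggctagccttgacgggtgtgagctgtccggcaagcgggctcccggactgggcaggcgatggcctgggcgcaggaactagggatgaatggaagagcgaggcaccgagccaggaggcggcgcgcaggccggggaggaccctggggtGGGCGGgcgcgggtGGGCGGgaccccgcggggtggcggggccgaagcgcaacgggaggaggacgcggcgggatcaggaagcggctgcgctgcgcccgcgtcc

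All 3 windows were rich in G and C, at 72.7% for Stim1, 72.3% for Orai1 and 73.7% for Trpv4, where the median of 33465 rat promoter windows of the same length was 51.7%. Each held 2 GC boxes, a motif present in 33.1% of all windows, most of which were poorer in G and C. The Trpm4 window, at 64.0% G and C, held 3. None of the 4 windows held a TATA element (TATAAA on either strand, in 14.2% of all windows) or a CArG box, the motif of serum response factor (in 1.64%). A CArG box can contain the TATA element. These are letter matches only, and the files do not measure binding at them.

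MAH against MAC asks whether the genes differed in mesenteric artery with the sucrose water of the dams. Of the 5 genes, all passed the filter on low counts, 0 passed the test and 0 had groups that did not overlap. Over all 13995 genes tested the share that passed edgeR's test was 0%, with 279 genes at an unadjusted p under 0.05, and the share whose groups did not overlap was 5.99%. DESeq2 called 3 genes and limma-voom 0, none of them a member, and 0 members had an unadjusted p under 0.05. Stim1 had a log2 fold change of −0.08 ± 0.15 (SE), with a 95% interval of −0.43 to 0.27. Trpc1 was at −0.01 ± 0.27, with an interval of −0.64 to 0.62, and Trpm4 at 0.12 ± 0.35, with an interval of −0.71 to 0.96. For Stim1 and Trpc1 the intervals thus left out a change of 2-fold in either direction. The interval of Trpm4 did so too, but only just on the higher side.

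Orai1 and Trpv4 had higher group means in MAH, with wide intervals. Orai1 was at 15.04 ± 9.07 CPM in MAC and 19.8 ± 11.8 CPM in MAH (SD, n = 3 per group), and its log2 fold change was 0.40 ± 0.57 (SE, interval −0.94 to 1.74). Trpv4 was at 19.5 ± 12.1 and 30.2 ± 22.8 CPM, with a fold change of 0.64 ± 0.71 (log2, interval −1.03 to 2.31). Both rested on MAH 3. Without that library the log2 fold change was −0.21 for Orai1 and −0.17 for Trpv4. MAH 3 also had the highest mitochondrial share of the mesenteric libraries, 20.00%, and MAC 1, with the lowest Orai1 and Trpv4 of the 6, had the lowest share, 12.8%. In between, the order of the share was not that of either gene. MAH 2, at 16.9%, had 10.9 CPM of Orai1 and 21.9 CPM of Trpv4. MAC 3, at 15.1%, had more of both, 13.3 and 28.2 CPM. The part of the mitochondrial share in these levels was not tested. The adjusted p from edgeR's quasi-likelihood test was 1.00 for each of the 5 genes.

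PAC against MAC asks how the genes differed between the 2 arteries of control offspring, and it shares the MAC libraries with the comparison above. Again 0 of the 5 genes passed edgeR's test and 0 had groups that did not overlap, against 0.0140% and 14.0% of 14315 genes tested. None of the 5 had an unadjusted p under 0.05 either, and DESeq2 and limma-voom called 0 of them. Trpv4 had the lowest pulmonary mean relative to mesenteric, at 9.77 ± 3.90 against 19.5 ± 12.1 CPM (SD, n = 3 per group). Its log2 fold change was −1.01 ± 0.62 (SE), with an interval of −2.51 to 0.49 and an adjusted p of 0.672 by edgeR. MAC 1, at 5.72 CPM, lay below all 3 pulmonary libraries, while MAC 2 and MAC 3 lay above them. Without MAC 1 the value was −1.46, and without MAC 3 it was −0.66. Over the alternatives other than leaving out 1 library it ran from −1.47 to −0.27.

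The other 4 genes differed less between the arteries. Stim1 was at 0.01 ± 0.27 (log2 fold change ± SE), with an interval of −0.64 to 0.66. Orai1 was at −0.26 ± 0.64, with an interval of −1.79 to 1.28, Trpc1 at 0.15 ± 0.63, with an interval of −1.37 to 1.67, and Trpm4 at 0.26 ± 0.41, with an interval of −0.72 to 1.24. Their adjusted p-values by edgeR ran from 0.864 to 0.993. Only for Stim1 did the interval leave out a 2-fold change in both directions, while the intervals of the other genes include such a change. Without PAC 4 the values were 0.25 for Stim1, −0.75 for Orai1, 0.62 for Trpc1 and 0.60 for Trpm4, none past the test. With PAC 1 as the only pulmonary library, Orai1 was at −1.53 and Trpv4 at −1.47, values read without a test because only the MAC libraries then give the spread.

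**Figure D2:**
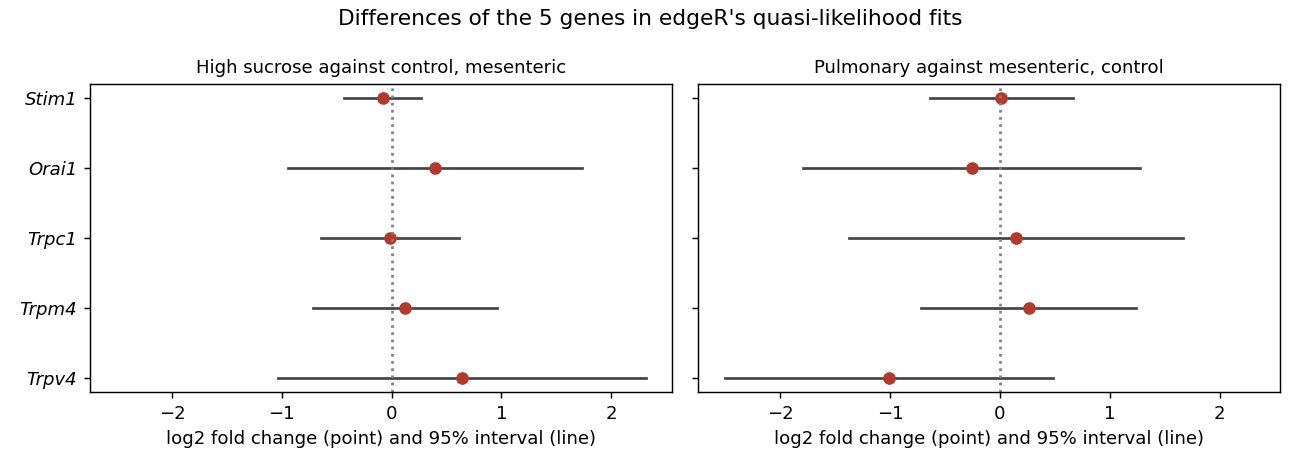
Log2 fold change (point) and 95% interval (line) of the 5 genes in edgeR's quasi-likelihood fits, for MAH against MAC on the left and PAC against MAC on the right, with a dotted line at no difference. All 10 intervals cross 0, from the narrowest, Stim1 in MAH against MAC (−0.43 to 0.27), to the widest, Trpv4 in MAH against MAC (−1.03 to 2.31).

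By group means, Stim1 and Trpc1 were ordered PAC, MAC, MAH, Trpm4 was ordered PAC, MAH, MAC, and Orai1 and Trpv4 were ordered MAH, MAC, PAC. No neighbours in these orders were apart, since every pair of groups overlapped for every gene. The furthest apart were MAH and PAC for Trpv4, with means 3.09-fold apart, which differ in both artery and maternal diet and were not tested.

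The spread within groups ran beside cell type markers. In the mesenteric libraries the summed CPM of 8 blood endothelial markers (Pecam1, Cdh5, Tie1, Tek, Kdr, Erg, Vwf and Egfl7) was 3787 in MAH 3, 3208 in MAC 2, 2475 in MAC 3, 2223 in MAH 1, 1509 in MAH 2 and 1457 in MAC 1. Orai1 took the same order except that MAC 3 and MAH 1 changed places. Trpv4 also had its highest level in MAH 3 and its lowest in MAC 1, but MAH 2, with few endothelial counts, exceeded MAH 1. In pulmonary artery the 2 genes parted. PAC 4 had the lowest endothelial sum of all libraries, 687.5 CPM, with Trpv4 at 7.94 CPM, but Orai1 at 19.8 CPM, the highest of the 3 pulmonary libraries. PAC 4 also held the lymphocyte markers, with a summed CPM of 1500 against 12.9 and 6.02 in PAC 1 and 2. Its lung epithelium markers summed to 693.9 CPM, against 0.91 and 61.5 in PAC 1 and 2. Of the 8 endothelial markers, 8 had a log2 fold change below 0 in PAC against MAC (median −0.93) and 4 did not overlap between the groups (Pecam1, Tek, Erg and Egfl7), beside 14.0% of all genes tested. Trpv4 had the same direction, and so had other marker lists. Of 5 Schwann cell markers tested, 4 were below 0 (median −1.48) and 3 did not overlap, and of 7 fibroblast markers 7 were below 0 (median −0.55) and 2 did not overlap. The summed CPM of 6 Schwann cell markers ran from 84.5 to 206 in the mesenteric libraries and from 57.6 to 97.3 in PAC. The part of endothelial, Schwann cell, fibroblast, lymphocyte or lung epithelial content in the levels of Orai1 and Trpv4 was not tested.

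In the mesenteric libraries Trpc1 ran beside the smooth muscle markers. Their summed CPM in the mesenteric libraries was 38428 in MAC 1, 27008 in MAC 3, 24232 in MAH 2, 20016 in MAH 1, 15480 in MAH 3 and 9647 in MAC 2. The 3 libraries with the highest sums were the 3 with the highest Trpc1, and MAC 2 was the lowest of the 6 for both. PAC 4, the library with the fewest smooth muscle counts at 3104 CPM, had the lowest Trpc1, Trpm4 and Stim1 of all 9. PAC 1 and PAC 2 broke the order. PAC 1 had the highest Trpc1 of all 9, 33.1 CPM, with a sum of 20444, and PAC 2 had 24.1 CPM with 21336. Both sums were below those of MAC 1, MAC 3 and MAH 2, which had less Trpc1. Trpm4 followed the mesenteric order less closely. MAC 3, with the second highest sum, had 28.4 CPM of Trpm4, below MAC 2. The part of smooth muscle content in these levels was not tested.

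**Figure D3:**
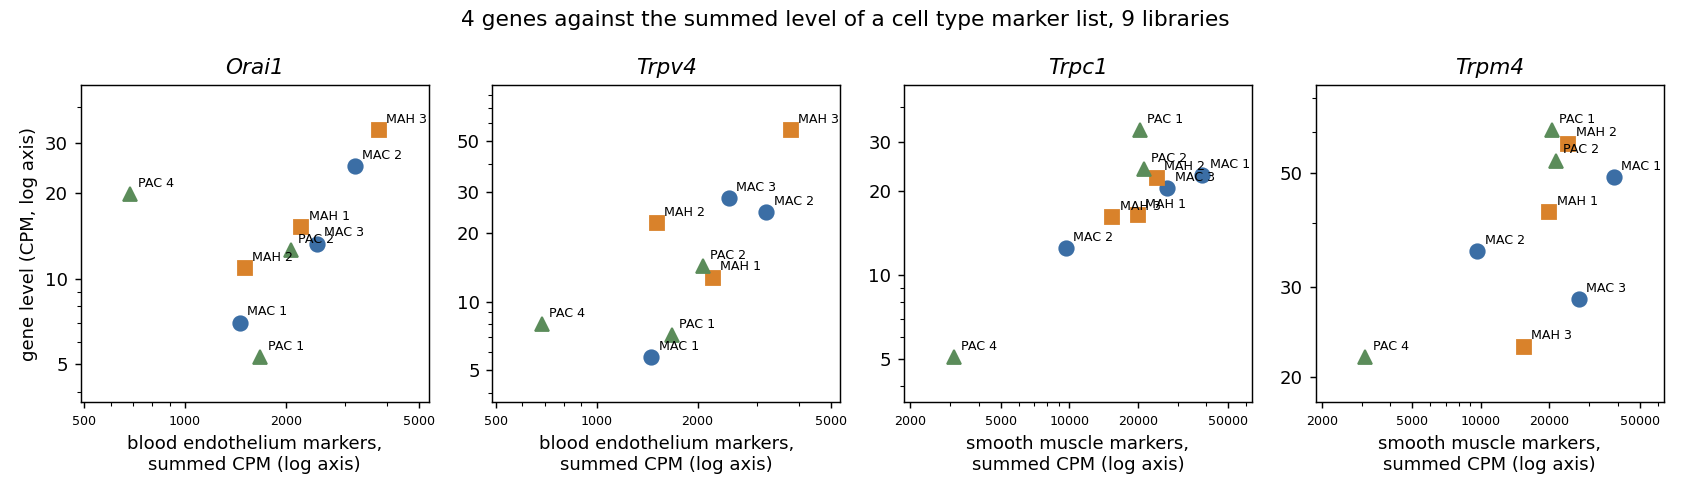
Level of Orai1 and Trpv4 (CPM, log y axis) against the summed CPM of 8 blood endothelial markers (log x axis), and of Trpc1 and Trpm4 against that of 7 smooth muscle markers, with 1 point per library, shaped by group. Orai1 is highest in the libraries with the highest endothelial sums, MAH 3 and MAC 2, but is at 19.8 CPM in PAC 4 with a sum of 687.5, and PAC 4 is at the lower left for Trpc1 and Trpm4.

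The genes whose pattern over the 9 libraries was most like each member were found by Pearson's r of log2 (CPM + 0.5) among 10411 genes with a symbol and a mean of at least 5 CPM. The values are a description, since the 9 points share the 3 groups, the scaling and the libraries that stand apart. For Stim1 they were Hprt1 (r = 0.99, Spearman's rho 0.95), Hibch (0.99, rho 0.98) and Antxr1 (0.98, rho 0.97). Without the 2 libraries farthest from the median of Stim1, PAC 4 and PAC 2, r was 0.95, 0.93 and 0.89. For Orai1 they were Ppp1r16b, Ppp4r1 and Ier5 (r = 0.96 each, rho 0.95 to 0.97), with r between 0.89 and 0.94 without MAH 3 and PAC 1. Ppp1r16b was at 35.6 CPM in MAC 1 and 26.8 CPM in PAC 1, where Orai1 was lowest, and at 169.5 CPM in MAH 3, where it was highest.

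For Trpc1 they were Thrb (r = 0.99, rho 0.95), Alb (0.98, rho 0.92) and Trim68 (0.97, rho 0.93), with r between 0.90 and 0.99 without PAC 4 and MAC 2. Thrb, the thyroid hormone receptor beta, was at 8.39 CPM in PAC 4 and 91.3 CPM in PAC 1, the lowest and the highest library of Trpc1 as well. For Trpm4 they were Rprd1a (0.98, rho 0.97), Zfp574 (0.97, rho 0.95) and Tcf25 (0.97, rho 0.97), with r between 0.93 and 0.95 without PAC 4 and MAH 3. For Trpv4 they were Arhgef15 (0.95, rho 0.90), Map3k6 (0.95, rho 0.93) and Glul (0.95, rho 0.98), with r between 0.92 and 0.97 without MAH 3 and MAC 1. Glul, glutamine synthetase, was at 180 CPM in MAC 1 and 434 CPM in MAH 3. Of the candidates, 41 genes had r above 0.95 with Trpc1, 20 with Stim1, 6 with Trpm4, 3 with Orai1 and 2 with Trpv4, so the first few names for Trpc1 and Stim1 stand among many close ones.

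The other STIM and ORAI genes were also detected, at the level of RNA only. Stim2, the second sensor, was at 40.6 ± 10.9 CPM in MAC, 39.7 ± 13.9 in MAH and 37.3 ± 6.90 in PAC (SD, n = 3 per group). Orai3, a further pore subunit, was at 23.4 ± 2.55, 22.3 ± 2.74 and 26.5 ± 2.40 CPM. Orai3 thus kept to a narrow band in all 3 groups, unlike Orai1. Orai2, the third pore gene, was at 8.35, 13.5 and 9.44 CPM in MAC 1, 2 and 3 and at 7.87, 6.83 and 7.64 CPM in MAH 1, 2 and 3, so that the mesenteric groups did not overlap. On CPM without mitochondrial genes they did, with MAH 1 at 9.58 and MAC 1 at 9.54 CPM. In pulmonary artery Orai2 was at 4.14 and 5.52 CPM in PAC 1 and 2, below every mesenteric library, and at 73.6 CPM in PAC 4. That library was the highest for the markers of both lymphocytes and lung epithelium. The part of either in its Orai2 level was not tested.

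Of the TRPC genes described here, Trpc4, a receptor-operated channel, had the largest contrast between libraries. It was at 16.5, 0 and 12.9 CPM in MAC 1, 2 and 3 (245, 0 and 138 counts), at 7.64, 18.8 and 5.63 CPM in MAH, and at 0.17, 0.57 and 0.39 CPM in PAC 1, 2 and 4 (2, 8 and 6 counts). A count of 0 in MAC 2 allows up to 0.26 CPM. This floor covers counting error only, since the reads carry no molecular identifiers. All mesenteric libraries but MAC 2 were thus above the pulmonary ones. The filter on low counts removed Trpc4 from PAC against MAC. With no filter its log2 fold change was −4.67 ± 1.73 (SE), with an adjusted p of 0.605 by edgeR. MAC 2 was also low for the cold channel gene Trpm8 (0.34 CPM, against 7.54 and 37.6 in MAC 1 and 3), which was chosen after its values were seen. MAC 2 had the lowest smooth muscle sum of the mesenteric libraries.

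Trpc2 and Trpc7 were low. Trpc2 was between 1.62 and 3.65 CPM in 8 libraries and at 8.84 CPM in PAC 4, and Trpc7 was between 0 and 1.43 CPM. Trpc5 and Trpc6 were not found by symbol and were not analysed here. Trpv5, an epithelial calcium channel, had 3 counts over all 9 libraries and was near 0.

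**Figure D4:**
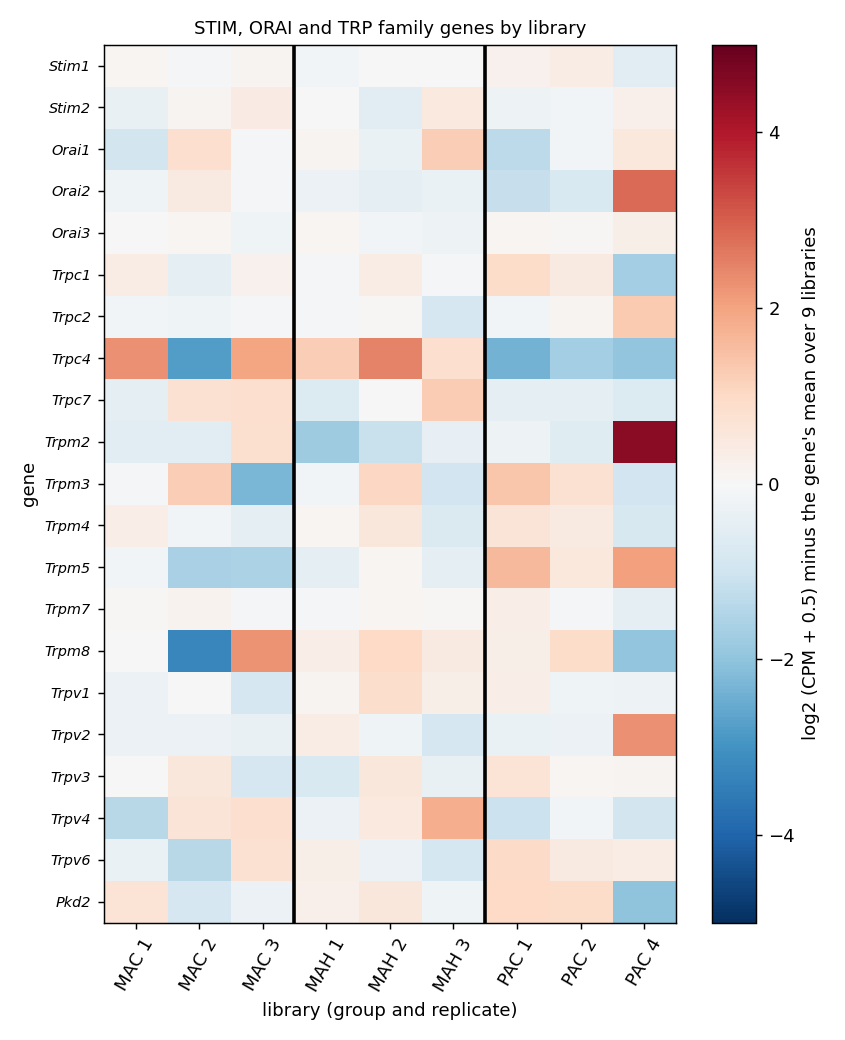
Level of 21 STIM, ORAI and TRP family genes tested in at least 1 comparison, as log2 (CPM + 0.5) minus the mean of each gene over the 9 libraries (colour), by library. Stim1 and Orai3 stay pale in the mesenteric libraries, Trpc4 is low in MAC 2 and in all pulmonary libraries, and Orai2, Trpm2 and Trpv2 are high in PAC 4.

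Of 33 genes listed for the STIM, ORAI and TRP family, 31 were found and 21 were tested in MAH against MAC. None rose or fell by edgeR, DESeq2 or limma-voom, and 0 had an unadjusted p under 0.05 by edgeR. Of the log2 fold changes 8 were above and 13 below 0, and the median was −0.03, beside 0.00 over all genes tested. Leaving out 1 library moved it between −0.13 (without MAH 2) and 0.15 (without MAC 3). Trpv1, the capsaicin receptor, and Orai2 were the 2 of 21 genes of the family whose groups did not overlap, beside 5.99% of all genes tested. Trpv1 was at 1.67 ± 0.61 CPM in MAC and 3.35 ± 1.14 in MAH (SD, n = 3 per group), which is 1.00 ± 0.46 (SE) on the log2 scale. Orai2 had a log2 fold change of −0.48 ± 0.28, and Trpm2, a channel opened by ADP-ribose, of −1.22 ± 0.64. Trpm2 was at −0.52 without MAC 3 and Orai2 at −0.23 without MAC 2. Each had an adjusted p of 1.00 by edgeR.

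In PAC against MAC 20 genes of the family were tested. Again none rose or fell by edgeR, DESeq2 or limma-voom, with 1 gene of 20 (Trpm5) at an unadjusted p under 0.05 by edgeR, beside 8.53% of all genes tested (1221 genes). There were 14 log2 fold changes above and 6 below 0, and the median was 0.33, beside 0.06 over all genes tested. Without PAC 4 the median of these 20 was 0.14, and with PAC 1 as the only pulmonary library it was 0.13. It was 0.12 without MAC 3, 0.11 without PAC 1 and 0.19 without PAC 2. Trpm5, a relative of Trpm4 that is also opened by calcium, was the 1 family gene of 20 whose groups did not overlap, beside 14.0% of all genes tested. It was at 0.44 ± 0.61 CPM in MAC and 4.67 ± 2.46 in PAC, and its log2 fold change was 3.35 ± 1.05 (SE, edgeR adjusted p = 0.486). MAC 2 and MAC 3 held 1 count each and MAC 1 held 17, so the size of the difference is uncertain, at 5.55 without MAC 1 and 2.89 without MAC 2. Trpm2 and Trpv2 were high in PAC 4 alone. Trpm2 was at 3.40, 2.51 and 105.7 CPM in PAC 1, 2 and 4, and Trpv2, a channel of immune cells and muscle, at 5.63, 5.95 and 37.2 CPM. Without PAC 4, Trpm2 turned from a log2 fold change of 3.17 to −0.52.

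Regulators of store-operated entry were represented by 17 genes found of 24 names listed, older symbols included, with 14 tested in each comparison and none that rose or fell by edgeR, DESeq2 or limma-voom. At an unadjusted p under 0.05 by edgeR there were 0 in MAH against MAC and 1 of 14 (Tmem178a) in PAC against MAC, beside 1.99% and 8.53% of all genes tested. Their median log2 fold change was −0.01 in MAH against MAC and −0.05 in PAC against MAC. Leaving out 1 library moved it between −0.06 (without MAC 2) and 0.0056 (without MAC 1) in the first, and between −0.24 (without PAC 2) and −0.07 (without MAC 2) in the second. Tmem178a did not overlap between groups in either comparison, which share the MAC libraries. Of all genes tested, 5.99% did not overlap in MAH against MAC and 14.0% in PAC against MAC. Tmem178a was at 5.10 ± 0.24 CPM in MAC, 3.32 ± 0.59 in MAH and 1.90 ± 0.83 in PAC, with log2 fold changes of −0.61 ± 0.30 (SE) and −1.40 ± 0.47. Stimate, a promoter of contacts between endoplasmic reticulum and plasma membrane, was at 22.9 ± 1.52 CPM in MAC and 31.7 ± 7.39 in PAC, where the groups did not overlap (0.47 ± 0.25). Itpr3, a receptor that releases calcium from the store, was at 0.35 ± 0.38 and Homer1, a scaffold protein, at −0.35 ± 0.44 in MAH against MAC, and Cracr2b, a calcium-binding regulator, at −0.45 ± 0.29 in PAC against MAC. Itpr3 was at 0.03 without MAC 1 and 0.74 without MAC 2, and Homer1 at −0.02 without MAC 3 and −0.73 without MAC 1. Cracr2b was at −0.29 without PAC 1 and −0.74 without PAC 4.

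Partners and scaffolds of TRP channels numbered 14 found of 16 listed, all tested, with none that rose or fell by edgeR. At an unadjusted p under 0.05 there were 0 in MAH against MAC and 2 of 14 (Ano1 and Kcnn3) in PAC against MAC, beside 1.99% and 8.53% of all genes tested. DESeq2 called 1 of them in PAC against MAC, Ano1, beside 453 of 22989 genes in all. In the same comparison limma-voom called 0 of them, beside 33 of 14315 genes in all. Their median was 0.18 in MAH against MAC, but −0.0042 without MAH 3 and 0.07 without MAC 2. In PAC against MAC it was 0.26, but 0.03 without PAC 2 and 0.47 without PAC 1. Ano1, the calcium-activated chloride channel of smooth muscle, was at 11.4, 12.99 and 4.86 CPM in MAC 1, 2 and 3 and at 90.9, 79.4 and 22.9 CPM in PAC 1, 2 and 4. Every pulmonary library was above every mesenteric one, and the log2 fold change was 2.71 ± 0.62 (SE, edgeR adjusted p = 0.341). DESeq2 gave Ano1 an adjusted p of 0.0024, and the edgeR fit with the replicate number as a block gave 0.0467. The fit with the block called 36 of 14315 genes in all. In that block MAC 3 and PAC 4 have no partner, so its difference rests on MAC 1, MAC 2, PAC 1 and PAC 2. Over the other alternatives the adjusted p of Ano1 ran from 0.0534 with limma-voom to 0.945 without MAC 3. Kcnn3, a small-conductance potassium channel that opens with calcium and pairs with TRPV4 signals in endothelium, was at 9.36 ± 3.25 CPM in MAC and 3.28 ± 1.24 in PAC (SD, n = 3 per group). Its log2 fold change was −1.51 ± 0.48 (SE, adjusted p of 0.483 by edgeR). Neither Ano1 nor Kcnn3 overlapped between PAC and MAC, beside 14.0% of all genes tested. In MAH against MAC, Kcnn3 was at −0.56 ± 0.35, Fkbp4, a co-chaperone, at 1.03 ± 0.45 and Pkd1, the partner of the channel gene Pkd2, at 0.39 ± 0.25. Fkbp4 was at 0.53 without MAH 3, Kcnn3 at −0.25 without MAC 3 and Pkd1 at 0.17 without MAH 2. In PAC against MAC Fkbp4 was at 0.64 ± 0.31 (edgeR adjusted p = 0.609).

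Calcineurin and NFAT genes, the phosphatase and transcription factors that calcium entry activates, numbered 11 found of 12 listed, all tested, with none that rose or fell by edgeR, DESeq2 or limma-voom. At an unadjusted p under 0.05 by edgeR there were 1 of 11 (Nfatc4) in MAH against MAC and 0 in PAC against MAC, beside 1.99% and 8.53% of all genes tested. The median was 0.02 in MAH against MAC, but 0.23 without MAC 2 and −0.13 without MAH 3. In PAC against MAC it was 0.04, but −0.22 without PAC 2 and 0.16 without PAC 1. Nfatc3 was at 37.5 to 45.0 CPM in MAC and 45.3 to 57.5 in MAH, a log2 fold change of 0.31 ± 0.16 (SE). Its groups did not overlap, beside 5.99% of all genes tested. Nfatc4 was at 0.47 ± 0.19 and Rcan1, an inhibitor of calcineurin and a target of NFAT, at −0.36 ± 0.22. In PAC against MAC, Nfatc1 was at 0.47 ± 0.38, Nfat5 at −0.45 ± 0.38 and Ppp3ca, a catalytic subunit of calcineurin, at −0.26 ± 0.31. Nfatc1 was at 0.10 without PAC 4, Nfat5 at −0.19 without PAC 4 and Ppp3ca at −0.0063 without MAC 2. Adjusted p-values by edgeR were 1.00 in the first and between 0.739 and 0.818 in the second comparison.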

How the data were processed

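The deposited files held whole-number read counts per gene for 9 libraries, made by the authors on build rn7, per the submitters' processing notes. The aligner, counter and strand setting were not stated. Each comparison was fitted on its own 6 libraries with edgeR 4.0.16 (quasi-likelihood, TMM scaling, filterByExpr, robust) in R 4.3.3, with Benjamini-Hochberg adjustment over all genes tested and a threshold of 0.05. Levels were CPM on TMM totals over 9 libraries, with a pseudocount of 0.5 for log2 values. Alternatives used DESeq2 1.42.0, limma 3.58.1 (voom), other scalings, filters and samples, and a replicate block. Code was tested on simulated data. The members and lists were chosen with earlier results of these data known. Named list genes were those called, else the 3 with the lowest unadjusted p in each list and comparison, with the STIM, ORAI and TRPC genes and those under 10 counts in all; 1 gene is not reported here. Genes most like a member were the 3 with the highest Pearson's r among genes with a mean of at least 5 CPM. Replicates differed beyond sampling noise (chi-square per degree of freedom 45.8 to 332). Promoter windows came from RefSeq (GRCr8). Totals of 10388231 to 15420546 counts set the precision.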

Additional observations from a re-analysis of the deposited data

How the results depend on the processing

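None of the 5 genes passed the test under any alternative run, and 128 of 145 member values kept their direction and side of the threshold. Genes called in MAH against MAC numbered 3 with DESeq2 and 0 in the edgeR test. In PAC against MAC the 2 called became 453 with DESeq2, 33 with limma-voom, 38 with all 9 libraries in 1 fit and 0 with PAC 1 as the only pulmonary library (where only the MAC libraries give the spread), and 0 to 22 leaving out 1 library each (22 without PAC 4). Leaving out 1 library each, the log2 fold change in MAH against MAC ran from -0.21 to 0.99 for Orai1, -0.22 to 0.15 for Trpc1, -0.20 to 0.39 for Trpm4 and -0.17 to 1.02 for Trpv4, and in PAC against MAC from -0.17 to 0.25 for Stim1, -0.75 to 0.32 for Orai1, -0.36 to 0.62 for Trpc1, -0.0048 to 0.60 for Trpm4 and -0.52 to 3.85 for Trpm2. Trpm2 was at -0.105 with voom. With PAC 1 as the only pulmonary library Trpm2 was at -0.34, Trpv2 at -0.059 and Nfatc1 at -0.19. In their deviations from the group mean, same-numbered libraries had r = 0.204, -0.303 and 0.12 for MAC and MAH. With 3 libraries per group, these values cannot show whether libraries with the same number share an animal or batch. The labels do not say either. The replicate block gave 36 calls in PAC against MAC and 0 in MAH against MAC, with Trpc1 at 0.0063 in MAH against MAC and Trpv2 at -0.036 in PAC against MAC. For PAC against MAC, MAC 3 and PAC 4 have no partner in the block, so the difference rests on MAC 1, MAC 2, PAC 1 and PAC 2. CPM without mitochondrial genes is divided by smaller totals, which raises every other gene. On it the mean of Stim1 was 79.7 in MAC and 76.3 in MAH, and that of Trpc1 in MAH was 22.1. The causes of the other changes in this section were not tested.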
